A study of Mus musculus with 28 samples.

Results

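Female C57BL/6J mice that went through 12 h of paradoxical sleep deprivation (PSD) and were later restrained were compared with female home cage controls that met neither, in whole pituitary glands. The comparison rests on 8 mice, 4 in each group, of the 28 mice in the series. They were chosen by their labels, and the result is described across all 18059 genes that passed a filter on low counts, of 32594 in the count table. The mice were 8 weeks old on arrival. PSD mice were kept with cage mates on small columns above water, where the water wakes a mouse whose muscles slacken in rapid-eye movement sleep, and 18 h after the end of PSD they were restrained for 20 min and killed 10 min after its end. Controls stayed in home cages in the same room without restraint. All mice of both groups had been habituated to the tank beforehand. Mice of 1 sex were housed in groups of 4, and the sources do not say which of them shared a cage or a tank, so the p-values measure the spread between mice and not between cages.

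The pituitary gland links the brain to the hormone glands. On stress, corticotropes of its anterior lobe receive corticotropin-releasing hormone from the hypothalamus, which raises cAMP in the cell, and they secrete corticotropin, a peptide cut from the precursor POMC. The adrenal gland answers with glucocorticoids, which act back on the pituitary. Within minutes of such a signal, cells transcribe immediate early genes, many of which encode transcription factors (NR4A, FOS, EGR) or inhibitors that limit the signal itself. The intermediate lobe also makes POMC, in melanotropes, and the posterior lobe holds the endings of hypothalamic neurons among pituicytes.

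The libraries held 23077710 to 47530774 counts in controls and 14024465 to 52239975 in PSD + restraint mice. Genes are given in CPM, a gene's counts relative to the library total, scaled by TMM, which sets the levels of 1 gene side by side between mice but not of different genes with each other. Markers of the anterior pituitary were present in every mouse, with Pomc at 68145, 36567, 49528 and 39206 CPM in controls 1 to 4 and at 101425, 93727, 74328 and 70509 CPM in PSD + restraint mice 1 to 4. PSD + restraint mouse 1 had the lowest depth of the 8 mice and was the highest of its group in 181 of the 277 genes called higher below. It was also the lowest of its group in 68 of the 121 genes called lower. How often this mouse was at the extreme over all genes tested was not counted. Markers of the posterior lobe were apart between the groups, and those of the intermediate lobe overlapped slightly. The summed CPM of the 3 intermediate lobe markers ranged from 1193 to 1819 in controls and from 1765 to 2866 in PSD + restraint mice, and that of the 5 pituicyte markers from 60.6 to 90.6 and from 104 to 132. A score of both lobes, the mean log2 level of these 8 markers, lay between -0.58 and -0.032 in controls and between 0.062 and 0.56 in PSD + restraint mice, so that the groups did not overlap. Sums of other marker lists were also apart. The 4 lactotrope markers summed to 159445 to 232028 CPM in controls and to 134254 to 155986 CPM in treated mice, the forebrain and neuron markers to 545 to 580 and 585 to 817 CPM, and the hypothalamic peptides to 17.3 to 24.1 and 25.7 to 37.0 CPM. The lactotrope sum was thus lower and the neuronal sums higher in every treated mouse. By gene, 1 of 4 lactotrope markers lay below all controls in every treated mouse. Of 13 forebrain and neuron markers tested and 6 hypothalamic peptides, 1 each lay above all controls. A log2 fold change above 0 was found in 1 of the 4, 12 of the 13 and all 6, and none was called. The part of these lists in the results was not tested. In bulk tissue, fewer cells of a type and less RNA per cell cannot be told apart.

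Of the 18059 genes, 398 (2.2%) were called, with an adjusted p of at most 0.05 and a log2 fold change past 0.322 in either direction. Of these, 277 (1.53%) were higher after PSD + restraint and 121 (0.67%) were lower (edgeR, quasi-likelihood, p adjusted by Benjamini-Hochberg). The unadjusted p was below 0.05 in 3649 genes. The 4 treated mice lay above or below all 4 controls in 274 of the 277 and in 117 of the 121, where 6.82% and 7.56% of all genes tested were placed so. The higher genes moved further. Their median log2 fold change was 0.78, with 95 genes at 1 or more and 25 at 2 or more, whereas the lower genes had a median of -0.43, with 9 at -1 or below. The median over all genes tested was 0.0076. Leaving out PSD + restraint mouse 1 gave 158 calls, control mouse 1 gave 613, control mouse 2 gave 240 and control mouse 4 gave 170. With the lobe score as a covariate, 50 genes were called, 47 higher and 3 lower, and 47 of the 50 were among the 398. Of the 92 called genes named in the text, 24 were called with the score and 68 were not, with adjusted p from 0.0522 to 0.533 in these and the sign of the fold change kept in all 92. DESeq2 gave 627 calls in place of 398.

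**Figure D1:**
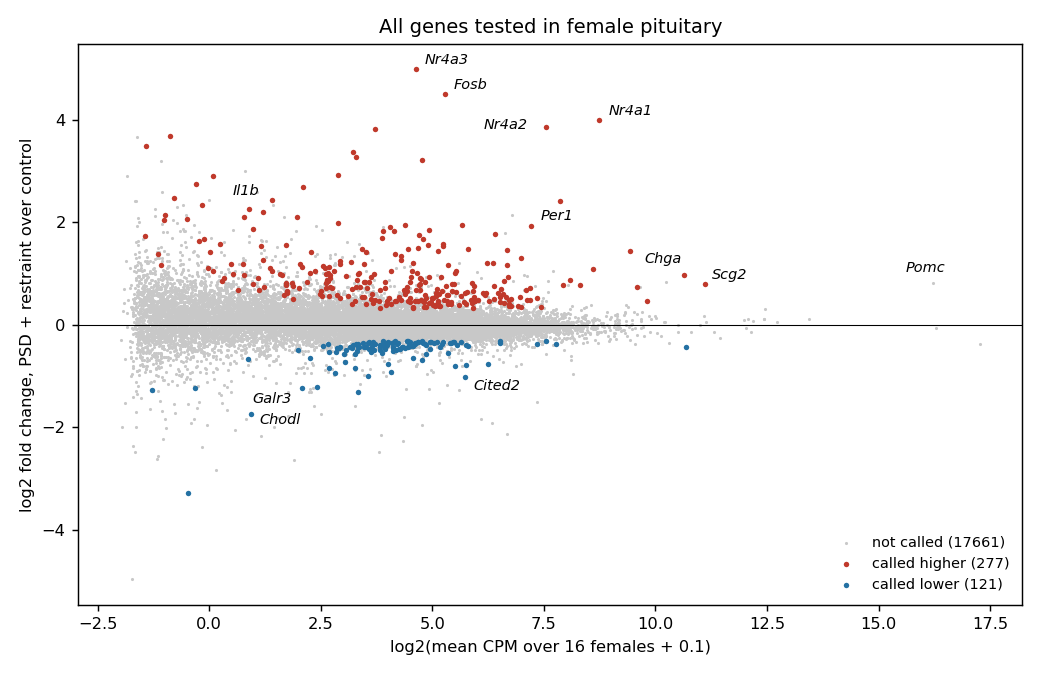
Log2 fold change of PSD + restraint over control in female pituitary against log2 of the mean CPM over 16 females (plus 0.1), 1 point for each of 18059 genes. Red points are the 277 genes called higher and blue points the 121 called lower. The red points reach a log2 fold change of 4.98 (Nr4a3), while the median of the blue points is -0.43.

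The gene of smallest p was Per1 (chr11:69095217-69109960, build GRCm38), a core repressor of the circadian clock that glucocorticoids and cAMP also induce. It read 90.0, 57.2, 61.0 and 61.6 CPM in controls 1 to 4 and 314, 216, 266 and 231 CPM in PSD + restraint mice 1 to 4. The log2 fold change, with its SE, was 1.94 ± 0.18 (adjusted p = 6.66e-05), and the same values stand in parentheses or after "at" for the genes that follow. The lowest treated mouse was thus well above the highest control, which was mouse 1. Slc25a25 (chr2:32414487-32451445), a mitochondrial carrier of ATP-Mg and phosphate, read 58.8, 48.1, 48.0 and 48.8 CPM in controls and 132, 106, 123 and 105 CPM after treatment (1.20 ± 0.11, adjusted p = 6.66e-05). Dusp14 (chr11:84048041-84069261), a phosphatase that acts on MAP kinases, read 37.4, 45.1, 39.9 and 43.9 CPM and then 176, 115, 156 and 117 CPM (1.77 ± 0.17, adjusted p = 6.66e-05). In both genes the control mice differed little from each other, and no overlap with treated mice was a condition of their choice.

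The 3 NR4A nuclear receptors, orphan transcription factors induced by cAMP and calcium, were all called higher. Nr4a3 (chr4:48045153-48086447) went from 1.75, 2.17, 1.54 and 1.91 CPM in controls to 114, 36.1, 42.8 and 38.5 CPM (4.98 ± 0.49, adjusted p = 6.66e-05). Nr4a1 (chr15:101254269-101274795) read 22.3, 63.6, 76.6 and 66.3 CPM in controls and 1255, 853, 929 and 574 CPM after treatment (3.99 ± 0.40, adjusted p = 8.15e-05). Nr4a2 (chr2:57106830-57124003) read 20.0, 28.8, 22.8 and 38.7 CPM and then 683, 279.8, 375 and 259 CPM (3.87 ± 0.37, adjusted p = 6.66e-05). In each of the 3 genes PSD + restraint mouse 1 was the highest of all. Their median log2 fold change was 3.99, and each was also called with the lobe score in the model.

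Il1b (chr2:129364570-129371139), the proinflammatory cytokine interleukin-1 beta, was low in controls, at 0.701, 0.724, 0.598 and 0.827 CPM, and read 4.99, 3.40, 3.44 and 3.63 CPM in treated mice (2.43 ± 0.24, adjusted p = 6.66e-05). Lcn2 (chr2:32384633-32388252), an acute phase protein that binds iron carriers of bacteria, read 17.3, 15.8, 10.3 and 13.1 CPM and then 51.3, 39.8, 47.2 and 41.4 CPM (1.68 ± 0.18, adjusted p = 1.29e-04). Clk1 (chr1:58410189-58424066), a kinase of splicing factors, made a small change with little spread, from 138, 144, 135 and 135 CPM to 202, 192, 193 and 196 CPM (0.51 ± 0.055, adjusted p = 1.29e-04). AK006051, a transcript listed only by a cDNA clone number, was called at 3.37 ± 0.35, adjusted p = 1.25e-04, and AK039878, another such entry, at 3.82 ± 0.50, adjusted p = 6.06e-04. Clk1, Il1b, Lcn2 and both clones were also called with the lobe score in the model.

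**Figure D2:**
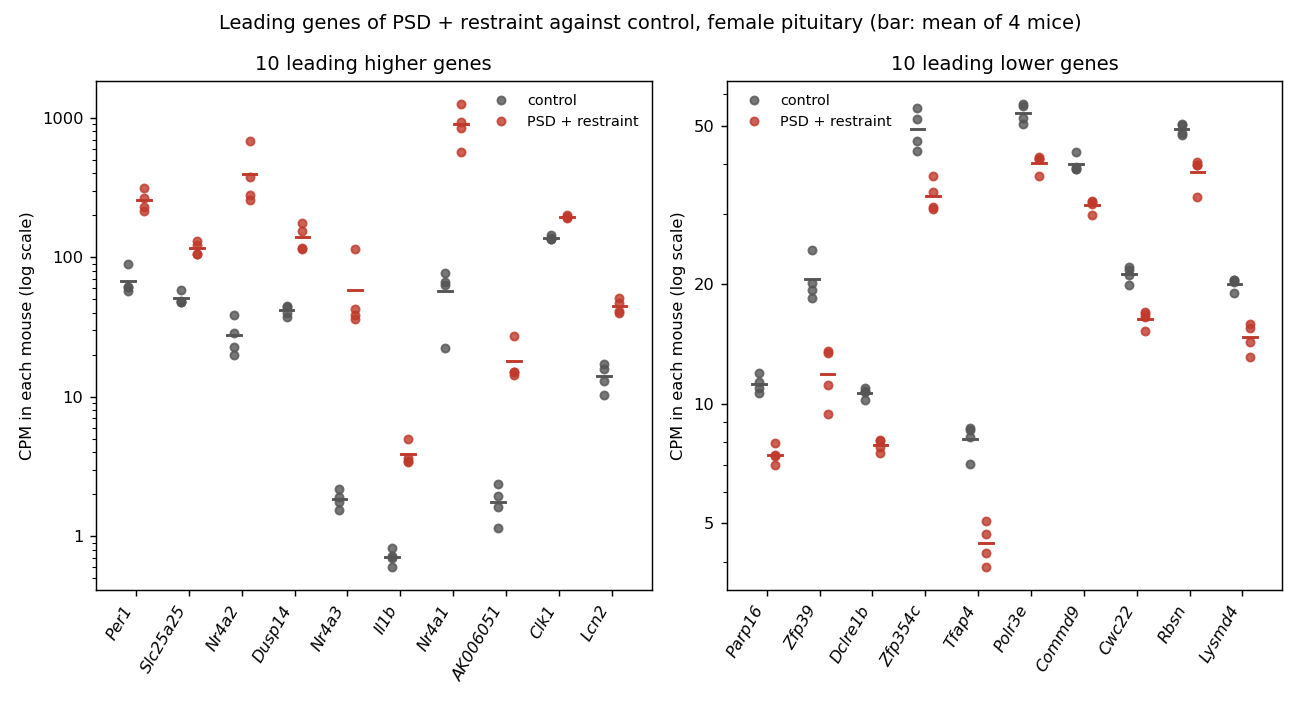
CPM in each mouse on a log axis for the 10 higher (left) and 10 lower (right) genes of smallest p, with 4 control mice in grey, 4 PSD + restraint mice in red and a bar at each mean. Both sets were drawn from called genes with a mean of at least 1 CPM and no overlap of the groups. Their separation was thus fixed by the choice. The distance between the groups is larger on the left, where Nr4a3 has a log2 fold change of 4.98. On the right the largest fall shown is that of Tfap4 at -0.85.

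Promoter sequences are shown for higher genes of smallest p, because several of them are known to be read through the cAMP response element (CRE), the site of the factor CREB. The windows come from RefSeq (GRCm38.p6), which held one for 12120 of the 18059 genes tested, and the 250 bases before the start are printed on the gene's strand. The start is that of a RefSeq transcript, and for Per1, Nr4a3 and this window of Slc25a25 it lies inside the longer GENCODE gene. Capitals mark the CRE core TGACG or its reverse complement CGTCA, the full palindromic CRE that holds both, and the TATA box (TATAAA or its reverse complement).
Nr4a2 (chr2:57124004-57124253, minus strand): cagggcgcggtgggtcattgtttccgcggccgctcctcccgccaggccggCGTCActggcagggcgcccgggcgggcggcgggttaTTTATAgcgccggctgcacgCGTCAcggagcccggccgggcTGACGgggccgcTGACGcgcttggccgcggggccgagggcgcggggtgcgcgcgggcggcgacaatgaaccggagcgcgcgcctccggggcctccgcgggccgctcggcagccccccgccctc
Nr4a3 (chr4:48045055-48045304, plus strand): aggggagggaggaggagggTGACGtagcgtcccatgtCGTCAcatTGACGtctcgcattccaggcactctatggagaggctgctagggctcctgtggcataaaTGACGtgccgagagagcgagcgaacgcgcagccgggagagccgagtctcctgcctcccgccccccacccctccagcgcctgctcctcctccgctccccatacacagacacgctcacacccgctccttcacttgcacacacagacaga
Per1 (window 1 of 2, chr11:69098699-69098948, plus strand): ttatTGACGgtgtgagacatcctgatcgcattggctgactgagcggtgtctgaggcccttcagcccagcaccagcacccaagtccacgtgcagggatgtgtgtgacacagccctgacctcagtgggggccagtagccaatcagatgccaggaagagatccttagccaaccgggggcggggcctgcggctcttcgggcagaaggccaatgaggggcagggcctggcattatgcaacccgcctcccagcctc
Slc25a25 (window 3 of 3, chr2:32424067-32424316, minus strand): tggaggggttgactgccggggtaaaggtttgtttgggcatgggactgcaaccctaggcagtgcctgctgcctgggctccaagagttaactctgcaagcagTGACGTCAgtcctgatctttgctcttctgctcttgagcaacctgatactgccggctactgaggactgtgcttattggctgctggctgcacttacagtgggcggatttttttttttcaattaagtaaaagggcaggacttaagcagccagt
Il1b (chr2:129371140-129371389, minus strand): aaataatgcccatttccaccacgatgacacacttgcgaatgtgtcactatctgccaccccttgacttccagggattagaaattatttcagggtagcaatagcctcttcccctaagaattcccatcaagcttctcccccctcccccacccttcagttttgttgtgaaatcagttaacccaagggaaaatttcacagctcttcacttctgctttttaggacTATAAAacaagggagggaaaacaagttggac

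Nr4a2 and Nr4a3 each held the CRE core 4 times, and Nr4a2 also had a TATA box on the opposite strand. Per1 held 1 CRE core in each of its 2 windows, and its first window also held an E-box (CACGTG), the site of clock activators, which is left in lower case. Window 3 of Slc25a25 held the full CRE, and it was chosen for print after the windows had been searched. Windows 1 and 2 of Slc25a25 and the single Dusp14 window matched none of the motifs searched. Il1b had a TATA box and no CRE core. Over the first window of each gene (300 bases, 50 of them past the start, both strands), the CRE core was found in 80 of 172 genes called higher (46.5%), in 27 of 88 called lower (30.7%) and in 29.6% of all 12120. The full CRE, which contains the core, was found in 6.98%, 3.41% and 3.05%. The TATA box was found in 14.5%, 6.82% and 7.63%. The AP-1 site TGANTCA was found in 7.56%, 5.68% and 5.28%, the E-box in 11.6%, 11.4% and 9.65%, the short glucocorticoid receptor motif TGTTCT in 14.0%, 20.5% and 12.6%, and the SRE (CArG box) in 2.33%, 0% and 1.29%. These shares describe letters in a window and were not tested.

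Of the 11 AP-1 factors tested, the FOS, JUN and ATF proteins that pair on AP-1 sites, 3 were called higher and 0 lower, with a list median of 0.46. Fosb (chr7:19302696-19310051) read 2.2, 3.53, 4.30 and 5.02 CPM in controls and 142, 70.6, 66.7 and 58.0 CPM in treated mice (4.5 ± 0.51, adjusted p = 1.80e-04). Fosl2 read 44.0, 106, 45.1 and 117 CPM and then 671, 237, 424 and 329 CPM (2.42 ± 0.40, adjusted p = 0.00465), and Atf3 was called at 3.27 ± 0.59, adjusted p = 0.00816. In Fosl2 the controls themselves fell into a higher pair, mice 2 and 4, and a lower pair, mice 1 and 3. Jun had the same control pairs, at 23.9, 49.1, 21.7 and 45.6 CPM against 22.7, 21.9, 16.4 and 18.8 CPM in treated mice, and was not called (-0.80 ± 0.23, adjusted p = 0.0696). Junb was not called either, and its treated mouse 4 was near the controls (239, 204, 124 and 49.4 CPM in mice 1 to 4, 1.79 ± 0.51, adjusted p = 0.0711).

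Of the 7 genes for EGR factors, their NAB corepressors and SRF, 5 were called higher and 0 lower. Egr3 read 1.59, 2.04, 1.48 and 1.28 CPM in controls and 17.2, 9.81, 8.44 and 12.5 CPM after treatment (2.92 ± 0.35, adjusted p = 2.65e-04). Egr4 was called at 2.19 ± 0.28, adjusted p = 4.5e-04 and Egr2 at 1.56 ± 0.34, adjusted p = 0.0210. Nab2, a corepressor of EGR proteins that EGR factors induce, went from 36.8, 36.0, 30.6 and 28.7 CPM to 48.7, 58.5, 63.8 and 55.6 CPM (0.79 ± 0.15, adjusted p = 0.00945), and Srf, which binds the serum response element of many immediate early genes, was called at 0.45 ± 0.090, adjusted p = 0.0142. Egr1 read 17.4, 49.9, 72.9 and 34.5 CPM in controls and 184, 363, 99.7 and 117 CPM in treated mice and was not called (2.14 ± 0.65, adjusted p = 0.0842). The median of the 7 was 1.56.

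Of 30 genes for IER, KLF and other early response factors, 8 were called higher and 0 lower, with a median of 0.35. Csrnp1 (1.47 ± 0.18) had the smallest p of them and was called with the lobe score as well. Arc, an immediate early gene of neurons whose protein acts at synapses, read 11.7, 5.75, 9.32 and 3.99 CPM in controls and 33.8, 38.9, 16.8 and 26.3 CPM in treated mice (1.91 ± 0.35, adjusted p = 0.00949). The others called were Klf4 (1.41), Klf2 (0.74), Maff (1.05), Tiparp (1.02), Cebpd (0.90) and Ier3 (0.83), given as log2 fold changes. Myc went the other way, from 23.8, 47.1, 26.7 and 51.5 CPM in controls to 16.8, 11.8, 20.1 and 13.7 CPM, with the treated mice below every control, and did not pass the test (-1.25 ± 0.34, adjusted p = 0.0579). Its control mice 2 and 4 were again the higher pair.

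Genes whose products limit MAP kinase signalling were called higher in 6 of 17 cases and lower in 0, with a median of 0.52. Beside Dusp14 these were the phosphatase genes Dusp5 (1.18 ± 0.20, adjusted p = 0.00498), Dusp4 (1.27 ± 0.30, adjusted p = 0.0333) and Dusp6 (0.52 ± 0.13, adjusted p = 0.0393), the receptor kinase inhibitor Errfi1 (1.58 ± 0.30, adjusted p = 0.00954) and Spry4 (0.90 ± 0.17, adjusted p = 0.00945). In Dusp5 the controls read 2.51, 2.08, 2.65 and 2.45 CPM and the treated mice 6.86, 4.94, 5.21 and 5.07 CPM. Of these 6 genes Dusp14 alone was called with the lobe score in the model.

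Among 15 genes of the cAMP response and its feedback, 5 were called higher and 0 lower, while the list median was 0.14. Gem (chr4:11704457-11714752), a small GTPase that holds back voltage-gated calcium channels, read 6.65, 6.47, 6.24 and 4.48 CPM in controls and 104, 31.7, 60.8 and 26.9 CPM in treated mice (3.22 ± 0.36, adjusted p = 1.70e-04). Sik1, a kinase that restrains the CREB coactivators, read 15.8, 26.7, 19.9 and 29.5 CPM and then 131, 72.2, 89.7 and 61.0 CPM (1.95 ± 0.23, adjusted p = 2.58e-04). Crem, whose short form represses cAMP-driven genes, went from 46.5, 59.1, 42.2 and 42.5 CPM to 138, 87.7, 103 and 107 CPM (1.20 ± 0.18, adjusted p = 0.00260). Rgs2 (0.94 ± 0.18, adjusted p = 0.0125), which shortens G protein signals, and the cAMP phosphodiesterase gene Pde4b (0.74 ± 0.15, adjusted p = 0.0155) had smaller changes. All 5 had separate groups of mice, and Gem and Sik1 were also called with the lobe score.

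Of 23 circadian clock genes, 6 were called higher and 0 lower, with a median of 0.18. After Per1, the changes were smaller. Hlf, a transcription factor of the clock's output, read 46.0, 41.5, 45.4 and 37.9 CPM in controls and 71.9, 64.6, 64.7 and 64.2 CPM after treatment (0.64 ± 0.084, adjusted p = 6.49e-04). Cry2 went from 64.1, 53.4, 57.4 and 53.6 CPM to 89.7, 78.9, 93.8 and 86.2 CPM (0.62 ± 0.094, adjusted p = 0.00260). Nfil3, a repressor that competes with Hlf and its relatives, was called at 1.34 ± 0.22, adjusted p = 0.00353 and Per2 at 0.57 ± 0.14, adjusted p = 0.0391. Nr1d1, the repressor REV-ERB alpha, read 35, 20.9, 24.6 and 25.5 CPM in controls and 16.9, 19.4, 20.4 and 19.7 CPM in treated mice and was not called (-0.46 ± 0.14, adjusted p = 0.0841).

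Of 20 glucocorticoid receptor genes and targets tested, Per1, Errfi1 and Cebpd were called higher, 0 lower and 17 neither, with a median of 0.18. Tsc22d3, a classic glucocorticoid target, read 76.9, 42.1, 45.6 and 34.7 CPM in controls and 63.1, 60.2, 62.7 and 71.2 CPM in treated mice (0.37 ± 0.18, adjusted p = 0.247). Control mouse 1 was the highest of the 8 mice in Tsc22d3, as it was the highest control in Per1. Nr3c1, the glucocorticoid receptor gene itself, read 66.7, 85.6, 75.4 and 65.3 CPM in controls and 73.6, 73.6, 73.2 and 69.9 CPM in treated mice and was not called (-0.0030 ± 0.11, adjusted p = 0.992), nor was the mineralocorticoid receptor gene Nr3c2 (0.12 ± 0.13, adjusted p = 0.666).

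Genes of the corticotrope and of POMC processing were called higher in 2 of 13 cases and lower in 0, while 12 of the 13 had a log2 fold change above 0 and the median was 0.42. The prohormone convertase gene Pcsk1 went from 129.7, 113, 106 and 90.4 CPM to 202, 170.4, 186 and 164 CPM (0.72 ± 0.14, adjusted p = 0.0144). Cpe, the carboxypeptidase that trims cut prohormones, went from 769, 684, 786 and 712 CPM to 1097, 1033, 1016 and 899 CPM (0.46 ± 0.090, adjusted p = 0.0122). Pomc itself was above every control in each treated mouse, at the levels given above, but did not pass the test (0.82 ± 0.29, adjusted p = 0.133). Pcsk2, the convertase that makes the melanotrope's peptides, read 998, 648, 739 and 797 CPM in controls and 1667, 1562, 1448 and 977 CPM in treated mice (0.84 ± 0.29, adjusted p = 0.119). The receptor gene Crhr1 (0.38 ± 0.16, adjusted p = 0.194) and Crhbp, whose product binds the releasing hormone (0.75 ± 0.58, adjusted p = 0.497), were not called. With the lobe score in the model the log2 fold change of Pomc was 0.050, that of Pcsk2 0.040, that of Pcsk1 0.45 and that of Cpe 0.28, none of them called. Pcsk2 is itself 1 of the 8 markers in that score, so its value with the score says nothing of its own change.

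Granins, acidic proteins of secretory granules, were called higher in 3 of 7 cases. Chga (0.96 ± 0.20, adjusted p = 0.0196) read 1157, 971, 942 and 1009.7 CPM in controls and 2239, 2112, 1929 and 1617 CPM in treated mice. Scg2 (0.79 ± 0.16, adjusted p = 0.0145) read 1802, 1371, 1817 and 1416 CPM and then 3048, 2917, 2922 and 2139.8 CPM. Vgf (1.49 ± 0.26, adjusted p = 0.00588), a neuropeptide precursor that neurotrophins induce, read 13, 15.4, 8.26 and 15.5 CPM and then 45.2, 35, 39.3 and 26.2 CPM. Of 7 neurotrophin genes tested, Bdnf was called higher (1.05 ± 0.26, adjusted p = 0.0452), at 13.1, 11.5, 11.1 and 9.75 CPM in controls and 31.5, 22.1, 22.9 and 17.9 CPM in treated mice. In all 4 genes the groups of mice did not overlap. The summed forebrain and neuron markers, given above, were higher in the same mice. With the lobe score as a covariate none of the 4 was called. The log2 fold changes were then 0.42 in Chga, 0.55 in Scg2, 0.96 in Vgf and 0.53 in Bdnf. The score itself did not overlap between the groups, so the lobes and the treatment cannot be told apart here.

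**Figure D3:**
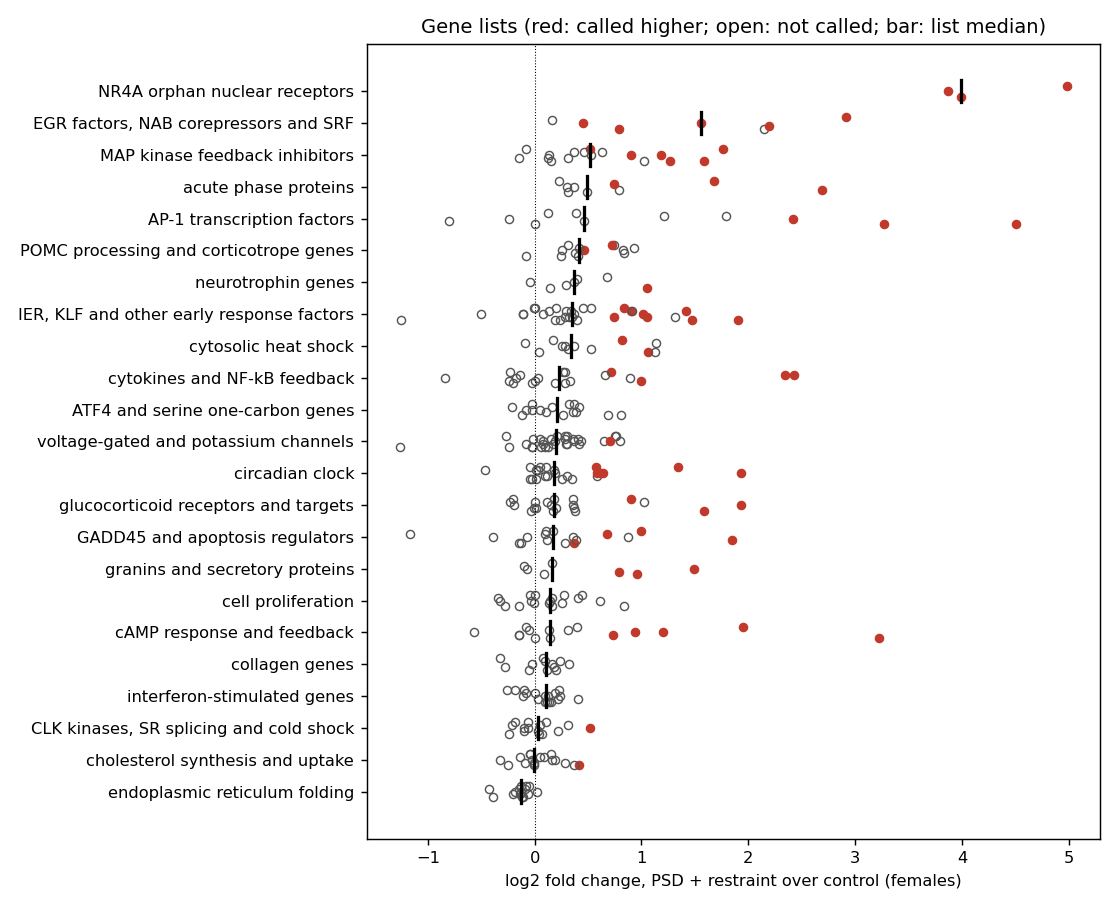
Log2 fold change of PSD + restraint over control in females for every tested member of 23 gene lists, with filled red points for called genes, open points for the rest and a black bar at the list median. The NR4A list has the highest median (3.99) and the endoplasmic reticulum folding list the lowest (-0.12), and no member of any list was called lower.

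Of 20 cytokine genes and genes of NF-kB feedback, 4 were called higher and 0 lower, with a median of 0.23. Beside Il1b these were Ptgs2, the inducible cyclooxygenase, Nfkbiz and Il33. Ptgs2 read 0.371, 0.317, 0.313 and 0.285 CPM in controls and 2.61, 1.24, 1.71 and 1.23 CPM in treated mice (2.35 ± 0.33, adjusted p = 0.00107). Nfkbiz, which modulates NF-kB in the nucleus, was called at 1.0 ± 0.15, adjusted p = 0.00260 and the alarmin Il33 at 0.72 ± 0.14, adjusted p = 0.0125. Of 9 acute phase genes, Lcn2, Clu and Serpina3n were called higher and 0 lower, and all 9 had a log2 fold change above 0. Clu, a secreted chaperone, went from 609.9, 522, 495 and 568 CPM to 948, 987, 976 and 746 CPM (0.75 ± 0.13, adjusted p = 0.00626). Serpina3n, a protease inhibitor, went from 0.948, 0.950, 0.997 and 0.428 CPM to 5.22, 5.14, 5.88 and 5.13 CPM (2.69 ± 0.69, adjusted p = 0.0476), and its control mouse 4 was the lowest.

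Macrophage markers had higher levels in treated mice, whereas other immune cell lists overlapped between the groups. All 14 macrophage markers had a log2 fold change above 0, and their summed CPM ranged from 170 to 181 in controls and from 200.4 to 239 in treated mice. Of the 14, Cd68 (0.57 ± 0.099, adjusted p = 0.00590) and C1qa (0.46 ± 0.12, adjusted p = 0.0476) were called higher and 0 lower. Cd68 read 5.89, 5.84, 6.38 and 6.44 CPM in controls and 8.05, 10.1, 9.02 and 9.03 CPM in treated mice. The 4 neutrophil markers tested summed with the rest of their list to 2.31 to 3.36 CPM in controls and to 2.92 to 13 CPM in treated mice, where mouse 4 was the highest. The lymphocyte markers summed to 2.82 to 3.79 CPM in controls and to 3.50 to 3.79 CPM in treated mice. Of 7 MHC class II markers, 3 had a log2 fold change above 0 and none was called (median -0.037). Of 7 smooth muscle and pericyte markers, Acta2 (0.99 ± 0.21, adjusted p = 0.0195) and Tagln (0.84 ± 0.17, adjusted p = 0.0163) were called higher, and the summed list ranged from 68.9 to 76.9 CPM in controls and from 82.6 to 94.3 CPM in treated mice. The part of these cells in the changes above was not tested.

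Of 12 cytosolic heat shock genes, the cochaperone genes Bag3 (1.06 ± 0.21, adjusted p = 0.0137) and Dnajb1 (0.82 ± 0.16, adjusted p = 0.0137) were called higher and 0 lower, with a median of 0.34. Dnajb1 read 41.1, 49.4, 41.8 and 34.9 CPM in controls and 62.4, 90.3, 69.1 and 70.8 CPM in treated mice. Hspa1a, the inducible HSP70, read 15.6, 16.7, 12.0 and 13 CPM and then 23.5, 43.7, 29.3 and 27.7 CPM without overlap, yet was not called (1.14 ± 0.34, adjusted p = 0.0802). Of 17 GADD45 genes and apoptosis regulators, 4 were called higher and 0 lower. Gadd45b, a stress sensor of the MAP kinase pathways, read 13.1, 15.7, 12.3 and 10.7 CPM in controls and 61.0, 49.7, 40.2 and 33.8 CPM in treated mice (1.84 ± 0.22, adjusted p = 2.58e-04). Mcl1, a survival factor, was called at 0.37 ± 0.064, adjusted p = 0.00591, while Bcl2l11, which encodes the death factor BIM, was called at 0.68 ± 0.13, adjusted p = 0.00912 and Phlda1 at 0.99 ± 0.17, adjusted p = 0.00626. Gadd45g, a relative of Gadd45b, had the control pairs described for Fosl2, at 33.4, 101, 32.2 and 90.9 CPM, against 30.4, 25.3, 25.8 and 32.3 CPM in treated mice, and was not called (-1.17 ± 0.41, adjusted p = 0.130).

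Several lists held 1 called gene or none. Of all genes tested 2.2% were called, so lists of this size cannot set such counts apart from that share. Clk1 was the only one called of 15 genes of CLK kinases, SR splicing and cold shock, Cyp51 (0.41 ± 0.092, adjusted p = 0.0253) of 17 cholesterol genes and Scn9a (0.71 ± 0.15, adjusted p = 0.0162) of 32 channel genes. None was called of 16 ATF4 and serine genes (median 0.21), of 18 proliferation genes (0.14), of 18 interferon-stimulated genes (0.11) and of 12 collagen genes (0.11). In the list of endoplasmic reticulum folding, 1 of 15 genes had a log2 fold change above 0 and none was called (median -0.12).

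Outside the lists, Mest (chr6:30723547-30748465), an imprinted gene, was among the called genes of highest level, with 363, 374, 446 and 448 CPM in controls and 1419.7, 1011, 1139 and 853 CPM in treated mice (1.45 ± 0.17, adjusted p = 2.58e-04). Coq10b, which serves coenzyme Q in mitochondria, read 27.8, 34.7, 27.3 and 34.0 CPM and then 109, 70.8, 79.7 and 82.6 CPM (1.48 ± 0.17, adjusted p = 1.70e-04). Mknk2, a kinase of the translation factor eIF4E, made a small and tight change, from 100.3, 88.8, 86.3 and 84.2 CPM to 127, 125, 128 and 126 CPM (0.50 ± 0.055, adjusted p = 1.47e-04). All 3 genes were called with the lobe score as well. Gper1, a membrane estrogen receptor gene, was called at 0.51 ± 0.13, adjusted p = 0.0478. Jag1 (0.46 ± 0.14, adjusted p = 0.0897), Ngef (0.66 ± 0.21, adjusted p = 0.0925) and Unc5b (0.88 ± 0.26, adjusted p = 0.0814) had higher levels that did not pass the test.

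The genes called lower made smaller changes. Parp16 (chr9:65195353-65239224), an ADP-ribosyltransferase of the endoplasmic reticulum, had the smallest p, with 11.9, 11.3, 10.9 and 10.6 CPM in controls and 7.01, 7.96, 7.40 and 7.43 CPM in treated mice (-0.58 ± 0.086, adjusted p = 0.00213). Zfp39 (chr11:58888153-58904225), a zinc finger gene, went from 19.3, 18.4, 20.1 and 24.4 CPM to 9.39, 13.4, 13.5 and 11.1 CPM (-0.77 ± 0.13, adjusted p = 0.00391). Tfap4 (chr16:4544661-4559854), a helix-loop-helix factor, went from 8.22, 7.06, 8.57 and 8.67 CPM to 3.88, 4.71, 5.06 and 4.22 CPM (-0.85 ± 0.14, adjusted p = 0.00511). Dclre1b, a nuclease that protects telomeres, read 10.8, 10.7, 10.2 and 10.9 CPM and then 8.12, 7.53, 8.07 and 7.80 CPM (-0.43 ± 0.071, adjusted p = 0.00463). These 4 genes, and those that follow, were picked among called genes with no overlap of the groups. The other leading genes were the zinc finger gene Zfp354c (-0.54 ± 0.092), the RNA polymerase III subunit gene Polr3e (-0.40 ± 0.070), the splicing factor gene Cwc22 (-0.36 ± 0.063), the endosomal genes Rbsn (-0.35 ± 0.061) and Commd9 (-0.33 ± 0.058), and Lysmd4 (-0.43 ± 0.077), with adjusted p from 0.00511 to 0.00712.

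Among lower genes with a mean of at least 1 CPM and no overlap of the groups, the largest falls by log2 fold change were those of Chodl (-1.75 ± 0.38, adjusted p = 0.0223), Dmrta1 (-1.31 ± 0.28, adjusted p = 0.0185), the galanin receptor gene Galr3 (-1.24 ± 0.31, adjusted p = 0.0463), C1qtnf6 (-1.21 ± 0.30, adjusted p = 0.0439) and Cited2 (-1.03 ± 0.23, adjusted p = 0.0237), a coregulator that competes for CBP and p300. Cited2 read 52.9, 108, 54.6 and 96.5 CPM in controls and 34.6, 45.8, 35.8 and 35.2 CPM in treated mice. Galr3 read 3.38, 6.42, 4.05 and 11.3 CPM in controls and 2.68, 3.15, 2.56 and 2.08 CPM in treated mice. Control mice 2 and 4 were the higher pair in all 5 genes, and the lower pair was closer to the treated mice. Mycn (-1.0 ± 0.24, adjusted p = 0.0333) and Nrep (-0.76 ± 0.17, adjusted p = 0.0284) had the same pairs. Among the called genes of highest level, Slc39a7 (-0.37), a zinc transporter gene, Apbb1 (-0.32), Arfgap1 (-0.38) and Cdk5rap3 (-0.35) were called lower with small log2 fold changes. Jrk (-0.47 ± 0.088, adjusted p = 0.00951) was the only lower gene named here that was also called with the lobe score.

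The same 4 controls were set against 4 females that were only restrained and 4 that had only PSD, so the 3 contrasts share their controls and are given side by side. Restraint alone gave 98 called genes (0.543%) and PSD alone 5 (0.0277%), with 1765 and 3567 genes at an unadjusted p below 0.05. These counts were not checked with DESeq2 or with mice left out. In the main contrast DESeq2 gave 627 calls in place of 398. The study, which used DESeq2, reported many more genes for PSD alone in females, so the small count here does not show a lack of effect. Nr4a3 had a log2 fold change of 4.36 ± 0.48 after restraint, -0.035 ± 0.58 after PSD and 4.98 ± 0.49 after both. Per1 had 1.62 ± 0.17, -0.029 ± 0.17 and 1.94 ± 0.18. Gem had 2.70 ± 0.36, 0.40 ± 0.37 and 3.22 ± 0.36, and Parp16 had -0.49 ± 0.085, 0.020 ± 0.085 and -0.58 ± 0.086. In these 4 genes the value after PSD alone lay within 2 SE of 0.

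In another 5 genes, grouped after their values were seen, the value after restraint alone lay nearer to 0. Lcn2 had a log2 fold change of 0.19 ± 0.18 after restraint, 1.36 ± 0.18 after PSD and 1.68 ± 0.18 after both. Serpina3n had 0.51 ± 0.71, 3.48 ± 0.69 and 2.69 ± 0.69. Among the PSD mice, mouse 1 had by far the highest level of Serpina3n, as given below. Clu had 0.17 ± 0.13, 0.84 ± 0.13 and 0.75 ± 0.13, Plk5 had -0.046 ± 0.13, 0.78 ± 0.13 and 0.83 ± 0.13, and Cpe had 0.12 ± 0.090, 0.50 ± 0.090 and 0.46 ± 0.090. Of these 5, Lcn2 (adjusted p = 0.0199) and Clu (adjusted p = 0.0317) were called after PSD alone. Hlf had similar values after either treatment alone, 0.38 ± 0.084 after restraint and 0.36 ± 0.084 after PSD, and 0.64 ± 0.084 after both.

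**Figure D4:**
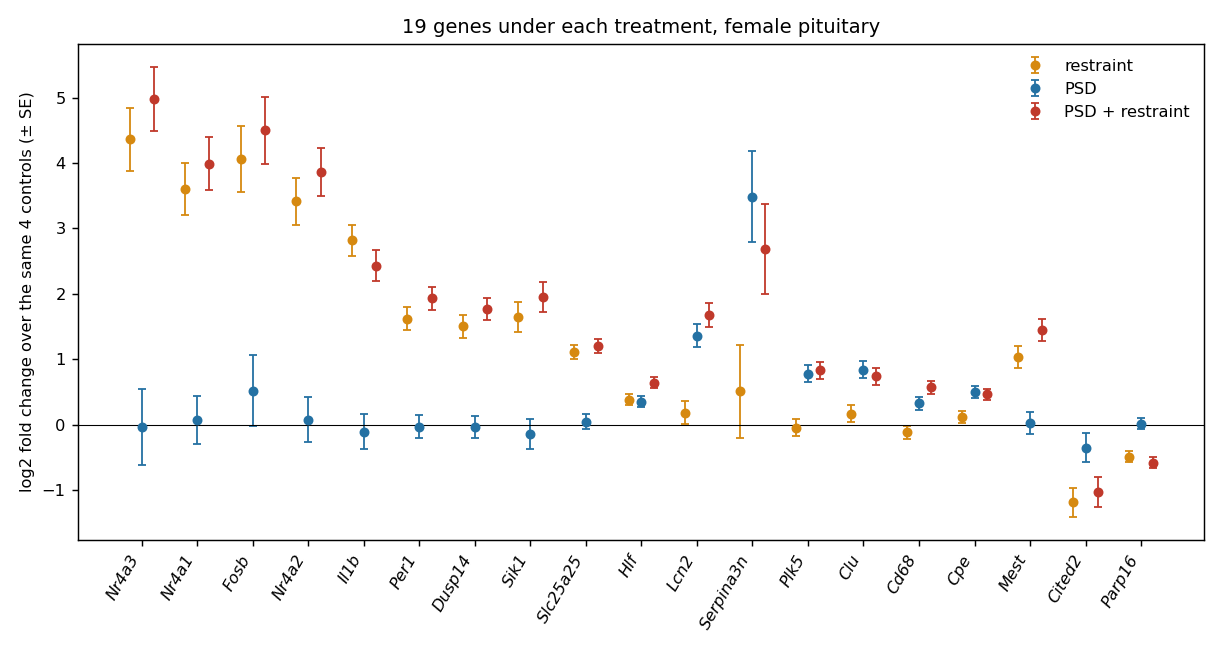
Log2 fold change over the same 4 female controls for 19 genes after restraint (orange), PSD (blue) and PSD + restraint (red), with bars of 1 SE. From Nr4a3 to Slc25a25 the orange and red points lie together, above blue points near 0, and from Lcn2 to Cpe the blue and red points lie together, above orange points near 0.

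Set directly against the restrained mice, PSD + restraint gave 6 called genes (0.0332%), 4 higher (0.0221%) and 2 lower (0.0111%), with 2555 at an unadjusted p below 0.05. Among them were Lcn2 (1.49 ± 0.18, adjusted p = 0.00536), Plk5 (0.88 ± 0.13, adjusted p = 0.0189) and Cd68 (0.69 ± 0.099, adjusted p = 0.0189), which were higher, and Ccs, the copper chaperone of superoxide dismutase (-0.41 ± 0.065, adjusted p = 0.0333), and Commd9 (-0.36 ± 0.058, adjusted p = 0.0378), which were lower. Lcn2 read 12.8, 21.5, 14.5 and 14.8 CPM in the 4 restrained mice. The count was 92 with DESeq2 (45 higher and 47 lower), 3 with only the groups compared, 1 with the replicate block and 0 with the lobe score. It also rests on single mice: without restraint mouse 2 it was 41, without restraint mouse 1, 3 or 4 or PSD + restraint mouse 2 it was 1, and without PSD + restraint mouse 3 it was 2 and without mouse 1 it was 3. Set against the PSD mice, PSD + restraint gave 170 called genes (0.941%), 147 higher (0.814%) and 23 lower (0.127%), with 273 in DESeq2, and 88 without PSD + restraint mouse 1, 103 without PSD mouse 2 and 98 without PSD mouse 3. Per1 (1.97 ± 0.18, adjusted p = 7.03e-05), Nr4a3 (5.02 ± 0.51, adjusted p = 7.34e-05) and Slc25a25 (1.15 ± 0.11, adjusted p = 7.03e-05) were higher, and Rgs16, which shortens G protein signals, was lower (-0.48 ± 0.091, adjusted p = 0.0157). The interaction of PSD and restraint, which asks whether their joint effect departs from the sum of both on the log2 scale, gave 0 called genes in edgeR and 0 in DESeq2, with 766 at an unadjusted p below 0.05 in edgeR and 705 in DESeq2. For Per1 the interaction was 0.35 ± 0.24 and for Nr4a3 0.66 ± 0.69, with adjusted p of 0.961 and 0.963.

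The remaining 8 females, 4 restrained and 4 with PSD, took no part as groups in the contrast with controls, though all 16 shared its estimate of the spread. This comparison was added after the data had been seen. Restrained mice against PSD mice gave 235 genes called higher (1.3% of those tested) and 164 called lower (0.908%). DESeq2 gave 803, with more lower (436) than higher (367), only the groups compared gave 91 (79 higher and 12 lower) and the lobe score as a covariate 154 (119 higher and 35 lower). The total of 399 was 104 without restraint mouse 4, 174 without restraint mouse 1, 661 without restraint mouse 2, 713 without PSD mouse 4, and 184, 205 and 169 without PSD mouse 1, 2 or 3. Of the 277 genes that were higher after PSD + restraint, 103 (37.2%) were called higher in restrained than in PSD mice and 24 (8.66%) were called lower, with a median log2 fold change of 0.34 against -0.0051 over all genes tested. Of the 121 lower genes, 3 were called higher and 6 lower, with a median of -0.062. The 103 included Nr4a1 (3.54 ± 0.40, adjusted p = 3.00e-04), Fosl2 (3.25 ± 0.42, adjusted p = 0.00155) and Mest (1.02 ± 0.17, adjusted p = 0.00591). The 24 included Serpina3n (-2.97 ± 0.66, adjusted p = 0.0325), Lcn2 (-1.17 ± 0.18, adjusted p = 0.00362) and Plk5 (-0.82 ± 0.13, adjusted p = 0.00403). Serpina3n read 0.785, 2.16, 1.07 and 0.610 CPM in restrained mice and 27.6, 4.20, 2.98 and 2.45 CPM in PSD mice. In PSD mouse 1 the forebrain and neuron markers summed to 1177 CPM, against 539 to 626 CPM in the other PSD mice. Its hypothalamic peptides summed to 70.7 CPM, against 26.2 to 37.8 CPM. The part of neural tissue in the values of this mouse was not tested.

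In males, 3 mice with PSD + restraint and 4 controls of the same strain and schedule gave 351 genes called higher (1.92% of 18271) and 116 called lower (0.635%). Of the 277 genes higher in females, 275 were tested in males, where 156 were called higher and 0 lower, 269 had a log2 fold change above 0 and the median was 0.66. In 186 of the 275 every treated male lay above every control male, as in 7.01% of all genes compared. Of the 121 genes lower in females, 120 were tested in males, where 20 were called lower and 0 higher, 109 had a log2 fold change below 0 and the median was -0.24. In 56 of the 120 every treated male lay below every control male, against 8.24% of all genes. In males Nr4a1 was called at 5.07 ± 0.53, adjusted p = 5.11e-04, Fosb at 4.34 ± 0.49, adjusted p = 8.12e-04, Egr3 at 3.57 ± 0.32, adjusted p = 1.44e-04 and Gadd45b at 2.47 ± 0.18, adjusted p = 4.21e-05. The levels of Egr3 were 0.531, 0.974, 0.604 and 0.792 CPM in control males and 8.06, 12.0 and 5.46 CPM in treated males. Junb, not called in females, was called in males (2.85 ± 0.39, adjusted p = 0.00256). Of the 5 lower genes named above for their large falls, Chodl (-0.17 ± 0.41, adjusted p = 0.880), Dmrta1 (-0.16 ± 0.20, adjusted p = 0.735), C1qtnf6 (0.16 ± 0.20, adjusted p = 0.725), Galr3 (-0.57) and Cited2 (-0.37), none was called in males.

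Whether females and males responded differently was tested for 18936 genes, and 0 were called by edgeR, with 1363 at an unadjusted p below 0.05, and 10 by DESeq2. For no gene named here was a sex difference called by edgeR at this number of mice.

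**Figure D5:**
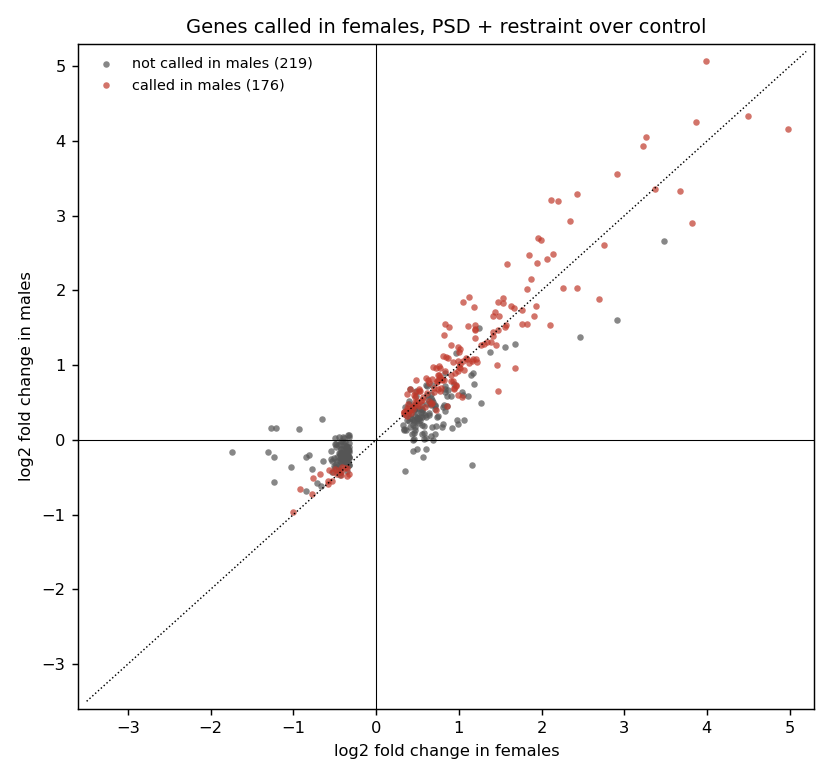
Log2 fold change of PSD + restraint over control in males (7 mice) against that in females (8 mice) for the 395 genes called in females and tested in males, with the dotted line at equal values. Red points are the 176 genes also called in males, and the genes called lower in females lie nearer to 0 in males, with a median of -0.24.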

How the data were processed

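The authors sequenced poly(A) RNA of whole pituitaries (TruSeq Stranded mRNA, paired-end, HiSeq3000), aligned the reads to mm10 with MapSplice, and deposited read counts per gene made with HTSeq 0.9.1 on UCSC gene models. A second deposited table of normalized values was not used. From the counts, edgeR 4.0.16 (R 4.3.3) fitted 1 mean per group over all 16 females, with TMM scaling and filterByExpr; its quasi-likelihood test with Benjamini-Hochberg adjustment over all genes tested gave the calls. Calls needed an adjusted p of at most 0.05 and a log2 fold change of at least 0.322, the limits of the study. SE is the fold change divided by the root of F. Replicate pairs differed by more than sampling noise, with a chi-square per degree of freedom of 9.62 to 80.3 over 12 pairs. CPM values rest on 14024465 to 52239975 counts per library. The test was tried on simulated counts with planted changes. These held no outlying mice or lobe differences, so they say nothing of how those affect the calls. Leading genes by p or fold change came from called genes with a mean of at least 1 CPM and no overlap of the groups. Others were named by level, and list members by p. Members, lists and named genes were chosen with earlier results of these data known. Gene positions come from GENCODE M21 (GRCm38). DESeq2, the method of the study, was an alternative here (version 1.42.0), with shrunken fold changes where 2 groups were compared. Among the genes called, 2 are not reported here.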

Additional observations from a re-analysis of the deposited data

Results flagged for a closer look

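A mouse was set apart in 25 of 220 checks (110 genes, each in 2 groups of 4 mice), where the gap to its nearest neighbour, as a share of the range of its group, passed Dixon's critical value. Chance sets apart about 1 in 20 such groups. Of the 25, 16 were in PSD + restraint mice and 9 in controls.

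PSD + restraint mouse 1 accounted for 9. It was the highest of its group in Nr4a3 (114 CPM, with the next mouse at 42.8), Fosb (142 and 70.6), AK006051 (27.2 and 15.1), Klf4 (13.6 and 6.46), Il1b (4.99 and 3.63), Dusp5 (6.86 and 5.21) and Hlf (71.9 and 64.7). It was the lowest in Polr3e (37.4 CPM, with the next at 41.1) and Rbsn (33.1 and 39.8). In each of these 9 genes the mouse lay further from the controls than the other 3 treated mice. PSD + restraint mouse 4 was the lowest in Scg2 (2140 CPM, with the next at 2917), Clu (746 and 948) and Nr3c1 (69.9 and 73.2), and the highest in Nrep (72.7 and 58.0). PSD + restraint mouse 2 was the highest in Cited2 (45.8 CPM, with the next at 35.8) and the lowest in Ccs (16.3 and 17.7), and mouse 3 was the highest in Serpina3n (5.88 and 5.22).

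Control mouse 1 was the highest in Per1 (90.0 CPM, with the next at 61.6) and Slc25a25 (58.8 and 48.8), and the lowest in Rgs16 (29.4 and 38.1). Control mouse 2 was the highest in Commd9 (42.8 CPM, with the next at 39.4) and Junb (62.2 and 39.6). Control mouse 4 was the highest in Tiparp (19.7 CPM, with the next at 16.2) and the lowest in Lysmd4 (19.0 and 20.3), Spry4 (3.14 and 4.62) and Serpina3n (0.428 and 0.948).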

How the results depend on the processing

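The main count of 398 was 627 with DESeq2 and 50 with the lobe score as a covariate, and lay within 1.5 times of 398 under the other 8 alternatives. Leaving out 1 of the 8 mice gave 158 to 613. Against restraint alone, the count of 6 was 92 with DESeq2, 3 with only the groups compared, 1 with the replicate block, 0 with the lobe score, and 1 to 41 with 1 mouse left out. Against PSD alone, 170 was 273 with DESeq2 and 88 to 157 with 1 mouse left out. The interaction stayed at 0 throughout. The sex difference of 0 was 10 with DESeq2, 1 with only the groups compared, 3 with the lobe score, and 0 to 1 with 1 mouse left out. Restraint against PSD, 399, was 803 with DESeq2, 91 with only the groups compared, 154 with the lobe score, and 104 to 713 with 1 mouse left out. The causes of these moves were not tested. The replicate block gave 380 calls in the main contrast. Deviations of controls and PSD + restraint mice with the same number correlated at -0.022, -0.038, -0.037 and -0.10. The restraint and PSD mice were not checked so. These values cannot show whether mice of the same number shared a cage or a batch.

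Of 110 named genes, Nr3c1 alone changed the sign of its log2 fold change in the main contrast, and it was not called under any alternative. It was -0.0030 in the report, 0.0010 with at least 10 counts in every mouse, 0.0067 with a mean TPM of at least 1, 0.092 with the lobe score, and -0.061 to 0.081 with 1 mouse left out. Calls were less stable than signs. With 1 mouse left out, 173 checks of a named gene lost the call, 5 gained one and 700 stayed as they were. Over 17 alternatives each, C1qa lost its call in 12, Serpina3n in 11, Rgs16 in 10, and Per2, Gper1 and Galr3 in 9. Depth limits the low genes most, since PSD + restraint mouse 1 had 14024465 counts. With 4 mice a group, a gene that was not called is not shown to be unchanged.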
